A study of Mus musculus with 24 samples.

Results

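When serine and glycine were left out of the medium of Phgdh wild-type (WT) pancreatic cancer cells grown with hepatocytes, few transcripts changed, and the rises were rich in genes of the cell division machinery. The comparison held 6 of the 24 libraries of the study, 3 from cocultures without serine and glycine and 3 from cocultures with both. Genes with at least 1 FPKM (a level divided by gene length and scaled to sequencing depth) in at least 3 of the 24 libraries were tested, which kept 12061 of the 54532 genes in the deposited table. The cells were HY19636, a single mouse line of pancreatic ductal adenocarcinoma (PDAC), and all 6 libraries came from cells labelled WT for Phgdh and cultured with hepatocytes. For comparison the same withdrawal was read in WT cells grown alone (monoculture) and in Phgdh knockout (KO) cells grown with hepatocytes (coculture), 3 libraries per group. How the 2 cell types were kept or taken apart, which part of Phgdh was edited and how long serine and glycine were absent were not given in the sources used here. Replicate numbers come without mention of separate cultures, and the p-values therefore speak only of variation among these libraries, part or all of which may be technical.

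Serine and glycine are amino acids that cells take up from their surroundings or make from glucose. Phgdh catalyses the first step of serine synthesis, Psat1 and Psph the next steps, and the one-carbon units drawn from serine feed the synthesis of purines and thymidylate for DNA. Cells short of amino acids are known to translate the transcription factor ATF4, which raises transcripts of amino acid synthesis and uptake. Transcripts of the DNA replication and mitosis machinery are known to peak at set stages of the cell cycle. The study, by its title, asks about serine that pancreatic cancer cells in the liver obtain from hepatocytes.

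Between 16926306 and 19584728 reads were assigned to genes in each of the 6 libraries, and replicate libraries correlated at 0.989 to 0.991 across genes on the log2 scale. Epithelial markers were abundant. Summed FPKM of 9 PDAC epithelium markers lay between 2332 and 2432 with serine and glycine and between 2275 and 2433 without. Most of this sum was Krt18, Krt19 and Krt8. Vim, a mesenchymal gene, stood above each of these keratins. Its mean log2(FPKM + 1) over the 6 libraries was 10.16, against 9.87 for Krt18, 9.43 for Krt19 and 8.89 for Krt8. Vim was not called, with a log2 change of −0.09. Of the 9 markers 7 passed the filter on low values, while Epcam (0.29 to 0.95 FPKM) and Cldn4 (0 to 0.03 FPKM) did not. Markers of hepatocytes were at or near 0 in both groups. The 15 hepatocyte markers summed to 1.69 to 2.49 FPKM with serine and glycine and 2.07 to 2.41 without, against 1.31 to 2.06 in WT monocultures, and Alb, Serpina1a, Fgb, Fga, Cyp2e1, Tat, Apoc3 and Ahsg had 0 reads in all 6 libraries. Of these 15 markers 1, Ass1, passed the filter on low values. The 11 macrophage and Kupffer cell markers summed to 7.92 to 8.30 FPKM with and 7.26 to 8.70 without, nearly all of it Cd68. No endothelial, stellate or fibroblast, acinar or islet marker passed the filter.

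Phgdh (ENSMUSG00000053398, chromosome 3, 98313170 to 98339990, GRCm38) was the most abundant transcript of the serine and one-carbon list, and its level overlapped between the groups. It measured 1331, 1236 and 1333 FPKM with serine and glycine and 1405, 1278 and 1249 FPKM without. The log2 change was 0.01, with a 95% interval of −0.23 to 0.25 (limma, Benjamini-Hochberg adjusted p = 0.999).

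On withdrawal 53 genes rose (0.439% of those tested) and 36 fell (0.298%) at an adjusted p under 0.05 in limma. Changes are differences of log2(FPKM + 1), so that those of genes at low FPKM come out too small. The 3 and 3 libraries did not overlap for any of these 89 genes, where over all tested genes 10.3% lay higher and 11.4% lower without overlap. On the scale of log2(FPKM + 1) changes were small. Only 1 rise and 2 falls came to 2-fold or more on it, and all 3 were short noncoding RNA genes. They were the miRNA gene Mir3091, which had 0 to 6 reads and lies inside Rps21, the 7SK RNA gene Rn7sk, and the rRNA-type gene Gm26280. Some genes at low FPKM changed by more than this scale shows. Mybl2, for example, had 34, 43 and 40 reads with serine and glycine and 135, 108 and 79 without. Of the rises 51 were protein-coding, as were 24 of the falls. With the spread estimated from the 12 WT libraries alone 243 genes were called, and with only these 6 libraries 4, so the number of calls rests on the libraries that share the estimate of error. With a correction for GC content and gene length 204 genes were called, 97 rises and 107 falls. Every one of the 6 libraries mattered too, since leaving out 1 at a time left 37 to 50 calls.

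**Figure D1:**
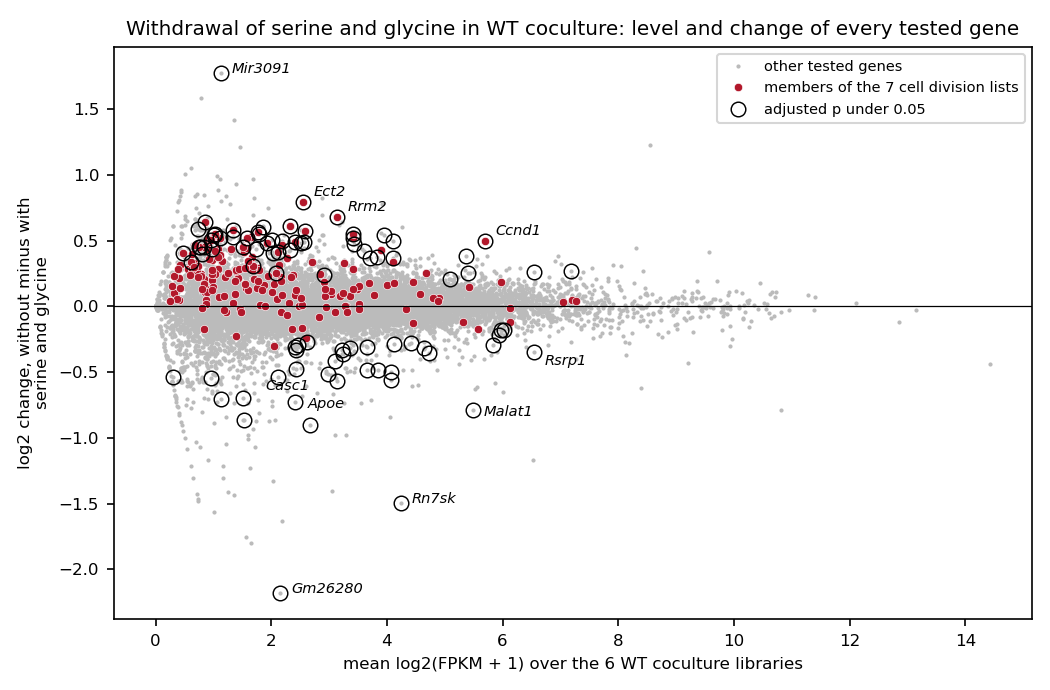
Mean level over the 6 WT coculture libraries (x axis, log2(FPKM + 1)) and log2 change on withdrawal of serine and glycine (y axis) for the 12061 tested genes, with members of the 7 cell division lists in red and the 89 called genes ringed. Ringed red points lie above 0 only, between 0.26 for Rfc3 and 0.79 for Ect2, while Rn7sk and Gm26280 lie lowest.

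Genes of cell division made up 25 of the 53 rises (47.2%), although the 7 lists that cover DNA replication, deoxynucleotides, recombination, mitotic entry, the kinetochore and spindle, cytokinesis and G1 control held 1.5% of the tested genes. None of their 181 tested members fell. The median change of the 181 members was 0.19 where that of all tested genes was 0.00, and 157 of the 181 lay above 0. In bulk RNA more cells of a kind and more RNA per cell cannot be told apart. The 3 and 3 libraries did not overlap for 102 members that were higher and 5 that were lower without serine and glycine. Of all tested genes 10.3% lay higher and 11.4% lower in this way. The number of members called was 16 with a pseudocount of 0.1, 15 with a filter of 5 FPKM, 11 to 16 with 1 library left out and 1 with the 6 libraries alone. Another 5 called rises outside the lists, noticed after their values were seen, have roles in cell division, namely Pbk, Poc1a, Pclaf, Kntc1 and Pimreg.

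**Figure D2:**
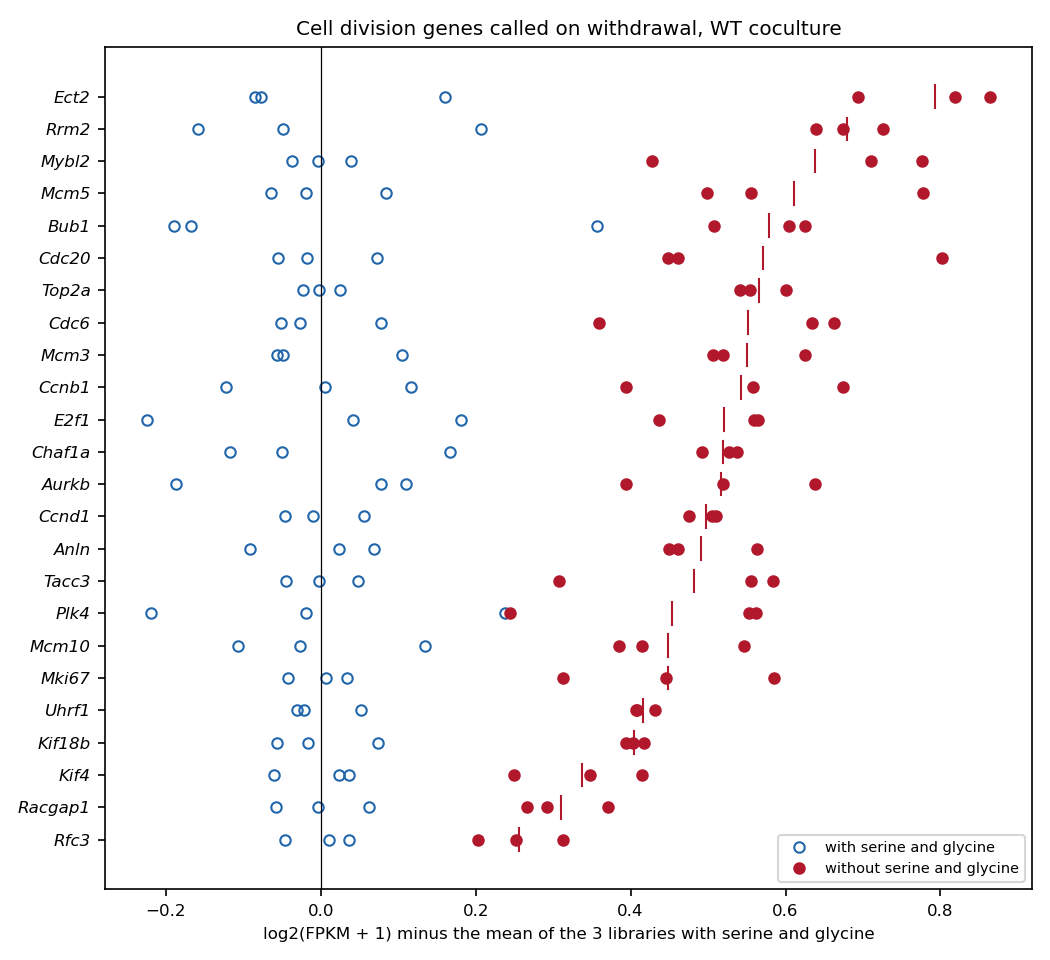
Level of 24 of the 25 called cell division genes in each library, as log2(FPKM + 1) minus the mean of the 3 libraries with serine and glycine (open blue circles, with; filled red circles, without; red bars, mean of the 3 without). Every red point lies to the right of every blue point of its gene, by the least margin in Plk4, where the lowest red and highest blue points nearly touch.

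Of the 46 tested genes of DNA replication and S phase 7 rose (Mcm5, Mcm3, Mcm10, Cdc6, Chaf1a, Uhrf1 and Rfc3), with a list median of 0.21, and 27 lay higher without overlap. Mcm3, a subunit of the replicative helicase, measured 7.42, 8.42 and 7.47 FPKM with serine and glycine and 12.5, 11.4 and 11.6 FPKM without. Its log2 change was 0.55 ± 0.07 (SE, limma adjusted p = 0.000556). Mcm5, another helicase subunit, went from 2.87, 2.99 and 3.29 FPKM to 4.94, 4.71 and 5.93 FPKM (0.61 ± 0.09, adjusted p = 0.00146). In both genes the lowest library without serine and glycine stood above the highest library with them. Cdc6, which loads the helicase at origins, read 0.784, 0.632 and 0.660 FPKM with and 1.62, 1.68 and 1.17 FPKM without, from 62 to 166 reads per library (0.55, adjusted p = 0.00514). Chaf1a, a histone chaperone of new DNA, rose from 1.41, 1.30 and 1.80 FPKM to 2.59, 2.62 and 2.51 FPKM. Uhrf1, which keeps up DNA methylation after replication, rose by 0.42 and Mcm10 by 0.45, and Rfc3, a clamp loader subunit, by 0.26. Just outside the threshold, at adjusted p between 0.05 and 0.07, stood Cdc45, Dtl and Lig1 with changes of 0.45, 0.33 and 0.33.

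Rrm2 (ENSMUSG00000020649, chromosome 12, 24708241 to 24714146, GRCm38), the small subunit of ribonucleotide reductase that makes deoxynucleotides, was the single call among 12 genes of deoxynucleotide supply. Its FPKM were 5.71, 7.02 and 5.23 with serine and glycine and 9.82, 10.1 and 10.5 without, with no overlap between the groups. The change was 0.68 ± 0.12 (limma adjusted p = 0.00892). Its partner Rrm1 read 3.28, 3.49 and 2.87 FPKM against 3.86, 3.85 and 3.73 FPKM and was not called (0.19, adjusted p = 0.234).

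Genes of mitosis moved in the same direction as those of replication. Among 28 genes of mitotic entry and the spindle checkpoint 4 rose (Mybl2, Bub1, Cdc20 and Ccnb1), the median was 0.27, and 21 lay higher without overlap. Cdc20, the activator of the anaphase-promoting complex, measured 4.15, 3.71 and 3.83 FPKM with and 7.53, 5.74 and 5.68 FPKM without (0.57 ± 0.12, limma adjusted p = 0.0295). Replicate 1 of the serine-free cocultures was the highest library, and the other 2 still lay above all 3 with serine and glycine. Mybl2, a transcription factor of cell cycle genes, was at 0.418, 0.495 and 0.451 FPKM with and 1.49, 1.38 and 0.957 FPKM without, from 34 to 135 reads (0.64, adjusted p = 0.00146). Ccnb1, the mitotic cyclin B1, rose from 0.675, 0.809 and 0.533 FPKM to 1.46, 1.19 and 1.66 FPKM. For Bub1, a checkpoint kinase, replicate 2 with serine and glycine stood apart at 1.66 FPKM from 0.824 and 0.852, and the serine-free libraries read 2.21, 2.16 and 1.96 (0.58, adjusted p = 0.0379). Plk1 (0.51, adjusted p = 0.0596) and Cdk1 (0.28, adjusted p = 0.0953) did not pass.

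Of 40 kinetochore, spindle and chromosome condensation genes 5 rose (Top2a, Tacc3, Mki67, Kif18b and Kif4), with a median of 0.27 and 25 members higher without overlap. Top2a, which untangles sister DNA, was tight in both groups, at 1.81, 1.77 and 1.86 FPKM with and 3.13, 3.26 and 3.09 FPKM without (0.57 ± 0.08, limma adjusted p = 0.00106). Tacc3, a spindle protein, rose from 2.21, 2.33 and 2.12 FPKM to 3.73, 2.98 and 3.82 FPKM. Mki67, the gene of the Ki-67 proliferation antigen, rose from 0.402, 0.450 and 0.478 FPKM to 0.793, 0.965 and 1.17 FPKM. The kinesins Kif18b (0.40) and Kif4 (0.34) rested on 11 to 41 and 29 to 78 reads per library.

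Cytokinesis and the chromosomal passenger complex had the highest median of the lists fixed for this comparison, 0.36, with 5 of 14 members called (Ect2, Aurkb, Anln, Plk4 and Racgap1) and 11 higher without overlap. Ect2 (ENSMUSG00000027699, chromosome 3, 27097222 to 27153878, GRCm38), the exchange factor that switches on RhoA at the cleavage furrow, had the largest change of any cell division gene called. It measured 3.19, 3.22 and 3.97 FPKM with serine and glycine and 6.19, 7.09 and 6.84 FPKM without (0.79 ± 0.12, limma adjusted p = 0.00311). Racgap1, its binding partner on the central spindle, rose from 1.76, 2.003 and 1.87 FPKM to 2.52, 2.46 and 2.72 FPKM (0.31, adjusted p = 0.0117). Anln, a scaffold of the contractile ring, rose from 3.71, 3.57 and 3.22 FPKM to 5.14, 5.64 and 5.19 FPKM (0.49, adjusted p = 0.0143). Aurkb, the kinase of the passenger complex, rose by 0.52 from 33 to 95 reads per library, and Plk4, the kinase of centriole duplication, by 0.45.

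G1 regulators were divided. Of 29 tested genes 2 rose, Ccnd1 and E2f1, while the list median was 0.04. Ccnd1 (ENSMUSG00000070348, chromosome 7, 144929931 to 144939925, GRCm38), the gene of cyclin D1, was the most abundant of the 25 called cell division genes. It read 41.3, 42.4 and 44.4 FPKM with and 59.7, 61.0 and 61.2 FPKM without, from 3413 to 5496 reads, and the groups were separated by many times their spread. Its change was 0.50 ± 0.05 (limma adjusted p = 6.47e-05), and it was called under all 17 alternative settings. E2f1, a transcription factor of S phase genes, read 9.12, 6.64 and 8.19 FPKM with and 12.2, 11.1 and 12.1 FPKM without (0.52, adjusted p = 0.012). Cdkn2a (0.05), Myc (0.04) and Cdk4 (0.03), the members of highest FPKM, did not pass. The 23 tested histone genes had no call and a median of 0.02.

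Upstream sequences are printed for 6 called genes, 2 each from replication with deoxynucleotide supply, from mitosis and from cytokinesis, to show how far they share motifs known from cell cycle promoters. They have the largest changes among the called members with an entry in the promoter table. Each run is the 250 bases before the RefSeq start of the gene in GRCm38.p6, written 5′ to 3′ along the gene's strand, with capitals for matches to a CCAAT box (CCAAT), a cell cycle genes homology region (TTTGAA or TTCGAA) or an E2F motif (TTTCGCGC, TTTGGCGC or TTTCCCGC), searched on both strands.
Rrm2 (chr12:24708004-24708253, plus strand): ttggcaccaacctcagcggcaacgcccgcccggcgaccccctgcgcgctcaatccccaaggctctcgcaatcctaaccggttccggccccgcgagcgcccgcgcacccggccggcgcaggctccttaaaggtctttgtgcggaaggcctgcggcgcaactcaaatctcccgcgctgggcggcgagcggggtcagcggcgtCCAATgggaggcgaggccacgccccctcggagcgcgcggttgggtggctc
Mcm5 (chr8:75109259-75109508, plus strand): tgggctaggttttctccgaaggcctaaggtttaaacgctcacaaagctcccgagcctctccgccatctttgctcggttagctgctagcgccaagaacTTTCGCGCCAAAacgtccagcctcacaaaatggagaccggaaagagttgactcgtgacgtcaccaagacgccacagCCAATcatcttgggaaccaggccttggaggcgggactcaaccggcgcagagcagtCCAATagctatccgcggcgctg
Mybl2 (chr2:163054385-163054634, plus strand): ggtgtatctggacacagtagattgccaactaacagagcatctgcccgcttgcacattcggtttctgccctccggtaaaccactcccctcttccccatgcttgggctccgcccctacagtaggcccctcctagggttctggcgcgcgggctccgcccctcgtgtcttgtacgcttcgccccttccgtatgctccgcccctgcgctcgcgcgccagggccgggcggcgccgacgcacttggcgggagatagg
Bub1 (chr2:127831860-127832109, minus strand): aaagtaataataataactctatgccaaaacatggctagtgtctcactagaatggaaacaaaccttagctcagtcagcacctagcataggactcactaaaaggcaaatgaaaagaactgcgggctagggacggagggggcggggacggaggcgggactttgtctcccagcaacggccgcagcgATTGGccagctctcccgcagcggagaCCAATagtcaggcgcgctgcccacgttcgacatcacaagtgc
Ect2 (chr3:27153879-27154128, minus strand): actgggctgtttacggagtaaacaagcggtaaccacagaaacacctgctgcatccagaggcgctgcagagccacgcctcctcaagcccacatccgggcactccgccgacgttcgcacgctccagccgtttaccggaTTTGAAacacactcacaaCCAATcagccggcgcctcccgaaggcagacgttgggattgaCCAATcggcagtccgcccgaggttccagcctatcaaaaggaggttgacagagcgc
Anln (chr9:22389207-22389456, minus strand): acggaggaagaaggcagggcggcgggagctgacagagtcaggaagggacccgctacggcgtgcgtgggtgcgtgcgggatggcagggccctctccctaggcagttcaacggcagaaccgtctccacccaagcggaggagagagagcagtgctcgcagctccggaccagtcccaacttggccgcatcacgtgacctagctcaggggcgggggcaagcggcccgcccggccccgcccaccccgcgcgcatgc
Bub1 and Mcm5 held 2 CCAAT boxes each, Ect2 held 2 and a cell cycle genes homology region, and Rrm2 held 1. In Mcm5 a pair of E2F matches on opposite strands overlapped each other. None of the exact runs searched was found in the windows of Mybl2 and Anln. Variants of the motifs that differ by a letter were not searched, so absence of a match does not mean absence of a site. A window was on hand for 22 of the 25 called cell division genes and 8070 of the 12061 tested genes. A CCAAT box was present in 72.7% of the 22 windows, in 59.0% of the 144 windows of all tested cell division list members and in 37.1% of all windows. The cell cycle genes homology region was in 22.7%, 28.5% and 11.5% of these sets, and an E2F motif in 13.6%, 15.3% and 3.4%. Among the 24 windows of called falls the shares were 41.7%, 4.2% and 0.0%. A match is a run of letters, and binding was not measured.

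Outside the cell division lists the rises with the clearest separation included metabolic, transport and surface genes. Akr1b3 (ENSMUSG00000001642, chromosome 6, 34302434 to 34317478, GRCm38), the aldose reductase that reduces glucose to sorbitol, read 13.4, 13.2 and 13.9 FPKM with and 19.96, 19.4 and 18.9 FPKM without. Its change was 0.49 ± 0.05 (limma adjusted p = 6.47e-05), called under all 17 alternative settings. Slco4a1, an organic anion transporter, read 12.6, 11.4 and 11.3 FPKM against 17.9, 16.9 and 17.8 FPKM (0.54, adjusted p = 0.00236). Both genes separated the groups without overlap. Rasgrp3, an exchange factor for Ras proteins, rose by 0.49, and Arhgap11a, a GTPase-activating protein for RhoA, by 0.48. Ctgf, a matrix protein gene and known YAP target, rose from 34.6, 35.9 and 34.7 FPKM to 45.6, 44.5 and 47.8 FPKM (0.38, adjusted p = 0.0082). The epithelial mucin Muc1 rose by 0.26 (adjusted p = 0.0437), and Anxa13, an annexin listed among cholangiocyte markers, by 0.47 (adjusted p = 0.00311). The summed FPKM of the 8 cholangiocyte markers, which these cancer cells largely share, was 1110 to 1155 with and 1160 to 1202 without, and 1 of the 6 tested, Anxa13, passed.

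Among the falls, Apoe (ENSMUSG00000002985, chromosome 7, 19696109 to 19699188, GRCm38), which encodes a lipoprotein component made by hepatocytes and many other cells, had the largest fall among the named protein-coding genes. It read 5.62, 5.86 and 6.16 FPKM with and 2.73, 3.16 and 3.65 FPKM without (−0.72 ± 0.15, limma adjusted p = 0.0221). The groups did not overlap. In the same libraries Alb and the other hepatocyte markers named above had 0 reads, while Apoa2 had 1 to 10 reads and Ass1 42 to 89 reads. Their part in the fall of Apoe was not tested. Apob and Rbp4, of the same lipoprotein list, were more abundant than Apoe. Their mean log2(FPKM + 1) over the 6 libraries was 6.12 and 6.08. Neither was called, with changes of −0.0004 for Apob and 0.17 for Rbp4. Casc1, a gene of ciliary dynein, read 8.52, 8.64 and 8.13 FPKM with and 5.90, 5.27 and 5.68 FPKM without, and had the lowest adjusted p of all tested genes (−0.51 ± 0.05, adjusted p = 3.26e-05). Casc1 overlaps Lrmp on the other strand. Whether counting used strand was not given in the sources used here, and 45 of the 89 called genes overlap another gene of the table, so reads of overlapping genes may be shared between them.

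In the autophagy and glycophagy list 2 of 34 genes fell. Atg9b, a membrane protein of autophagosome formation, went from 10.4, 8.86 and 9.84 FPKM to 5.91, 6.18 and 6.54 FPKM (−0.57, limma adjusted p = 0.00146). Stbd1, which tethers glycogen to membranes, went from 28.03, 28.4 and 30.2 FPKM to 22.8, 23.6 and 20.8 FPKM (−0.36, adjusted p = 0.0291). The list median was 0.01, and its most abundant members Sqstm1 (−0.01), Gabarap (−0.07) and Map1lc3b (0.01) did not pass. Fn1, the gene of fibronectin, fell from 63.7, 60.4 and 62.6 FPKM to 50.3, 50.5 and 50.6 FPKM (−0.30, adjusted p = 0.00383). With Ctgf it was the other call among 23 epithelial and mesenchymal genes, and the 2 moved in opposite directions. Further falls were Tmem267 (−0.49), Paxbp1 (−0.36), Ankrd16 (−0.33), Kbtbd11 (−0.33), the endosomal adaptor gene Appl2 (−0.32) and Abcb1a (−0.32), which encodes a P-glycoprotein drug exporter.

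Several RNAs known to stay in the nucleus fell. This was noticed after the values were seen, and a list of 20 long noncoding, nuclear-retained and intron-retaining RNAs was then drawn up, so its counts are a description. Of 18 tested 7 fell (Malat1, Neat1, Firre, Xist, Rn7sk, Rsrp1 and Arglu1), none rose, and the median was −0.21. Without overlap 14 lay lower, as did 11.4% of all tested genes. Rsrp1 and Arglu1 are protein-coding genes, and where these RNAs lay in the cell was not measured. Malat1 (ENSMUSG00000092341, chromosome 19, 5795690 to 5802672, GRCm38), a long noncoding RNA of nuclear speckles, read 57.5, 65.6 and 51.3 FPKM with and 26.1, 36.6 and 38.0 FPKM without (−0.79 ± 0.12, limma adjusted p = 0.00311). Neat1, the scaffold RNA of paraspeckles, read 13.5, 14.1 and 13.8 FPKM with and 8.68, 10.1 and 10.1 FPKM without (−0.48, adjusted p = 0.00383). The highest serine-free library of each gene lay below the lowest library with serine and glycine. Rsrp1, an arginine- and serine-rich protein gene, read 104, 104 and 105 FPKM with and 80.5, 82.3 and 81.8 FPKM without (−0.35, adjusted p = 0.00175), and was called under all 17 alternative settings. Arglu1, a splicing regulator, fell by 0.31 on the log2 scale. Rn7sk, which holds the elongation factor P-TEFb inactive, read 29.6, 31.1 and 31.7 FPKM with and 4.17, 17.5 and 13.9 FPKM without, and the serine-free libraries were widely spread. The share of reads from mitochondrial genes was 2.03 to 2.11% with and 1.87 to 2.04% without. Protein-coding genes took 97.38, 97.42 and 97.43% of reads with and 97.99, 97.48 and 97.57% without. The 10 most abundant genes took 8.29 to 8.37% with and 8.04 to 8.20% without. The serine-free library with 97.99%, replicate 1, was also the lowest of the 6 for Malat1, Neat1 and Rn7sk. The part of RNA composition and quality in these falls was not tested.

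**Figure D3:**
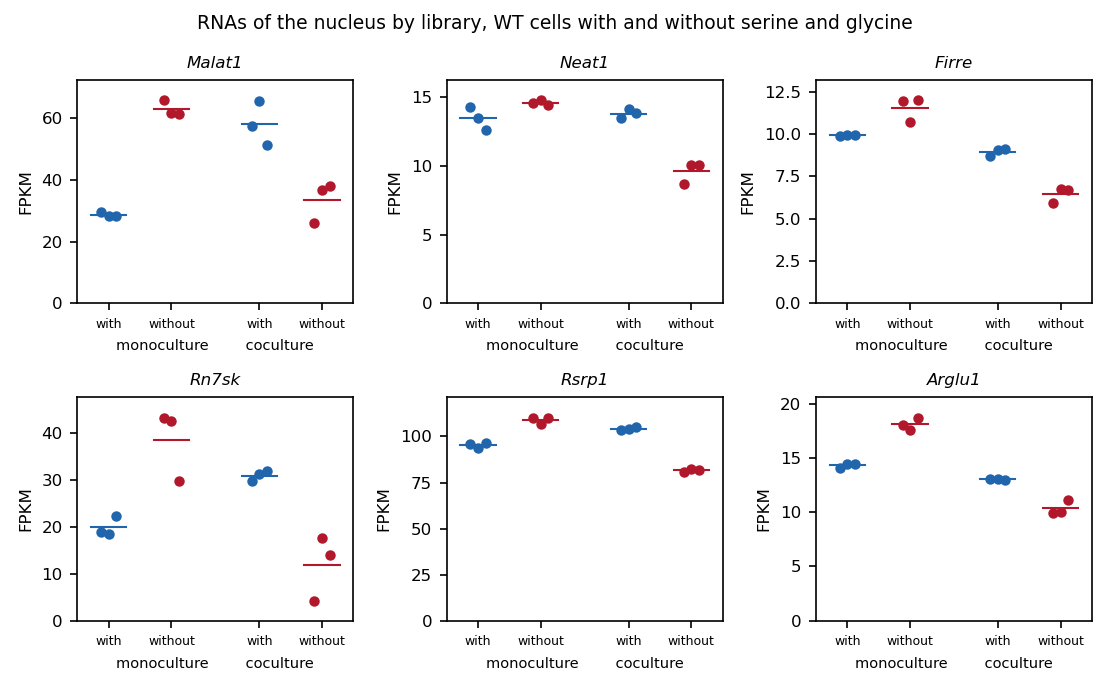
FPKM of 6 called genes from the list of long noncoding, nuclear-retained and intron-retaining RNAs in single libraries of WT cells (points, with bars for the mean of 3). Libraries with serine and glycine are in blue and those without in red, with monoculture on the left and coculture on the right of each panel. In coculture the red points lie below the blue in all 6 panels, and in monoculture Malat1 runs the other way, from 28.2 to 29.6 with serine and glycine up to 61.3 to 65.8 without.

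Serine synthesis and one-carbon metabolism gave a single call. Of 28 tested genes none rose and 1 fell. That gene, Mthfd1l, a mitochondrial enzyme that releases formate, read 68.0, 69.0 and 67.4 FPKM with and 59.9, 59.8 and 60.5 FPKM without (−0.18 ± 0.04, limma adjusted p = 0.0415). Psat1 read 141, 141 and 133 FPKM with and 144, 140 and 143 FPKM without, a change of 0.04 with a 95% interval of −0.08 to 0.15. Mthfd2, the mitochondrial folate enzyme, changed by −0.06 (−0.15 to 0.02), Psph by 0.08 (−0.05 to 0.20) and Shmt2, which splits serine into glycine and a one-carbon unit, by 0.05 (−0.11 to 0.21). None of the 15 purine synthesis genes was called, and 13 of them lay above 0 with a median of 0.05. Paics, for example, changed by 0.05 (−0.10 to 0.20).

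The response to amino acid shortage showed no call either. None of 29 ATF4 and amino acid response genes passed, and their median was 0.02. Atf4 itself read 280, 297 and 290 FPKM with and 283, 274 and 269 FPKM without (−0.07, 95% interval −0.48 to 0.34, limma adjusted p = 0.968). Asns, the asparagine synthetase gene, changed by 0.02 (−0.14 to 0.18), Trib3 by 0.07 (−0.25 to 0.40) and Chac1, a glutathione-degrading enzyme, by 0.03 (−0.36 to 0.42). Of 14 amino acid transporters none passed, including Slc7a5 (0.15, 0.02 to 0.28), Slc3a2 (0.01, −0.16 to 0.18), Slc38a2 (−0.13, −0.27 to 0.00) and the serine carrier Slc1a4 (0.03, −0.07 to 0.13). The 23 tRNA synthetases had no call and a median of −0.01. Neither did the 21 p53 targets (median 0.00, with Cdkn1a at −0.17, −0.41 to 0.07) or the 21 ER chaperone and unfolded protein response genes (median −0.01, with Hspa5 at −0.08, −0.23 to 0.07) have one.

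Lipid and glycolysis genes had no call, and part of their members sat slightly lower without serine and glycine. Over all tested genes 11.4% lay lower and 10.3% higher without overlap. Of 26 cholesterol synthesis genes 10 lay lower without overlap and none higher, with a median of −0.05. Of 12 fatty acid synthesis genes 5 lay lower without overlap, Scd2 among them at −0.14. Of 31 hypoxia and glycolysis genes 12 lay lower and 1 higher without overlap, with the glucose transporter gene Slc2a1 at −0.14 (−0.27 to −0.02). NRF2 and glutathione genes leaned upward, with 10 of 24 higher and 2 lower without overlap and a median of 0.09, although Hmox1 read 204, 202 and 210 FPKM with and 172, 173 and 177 FPKM without (−0.24, adjusted p = 0.36). Among the 15 mitochondrially encoded genes there was no call, 13 lay below 0, 7 lay lower and none higher without overlap, and the median was −0.25. WT monoculture had nearly the same shift, with 14 of the 15 below 0 and a median of −0.23. In the lipoprotein list 1 of 10 genes fell, Apoe. No call was made among the 25 AP-1 and immediate early genes, the 9 interferon response genes or the 50 ribosomal protein genes, whose medians were 0.02, 0.09 and 0.02.

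**Figure D4:**
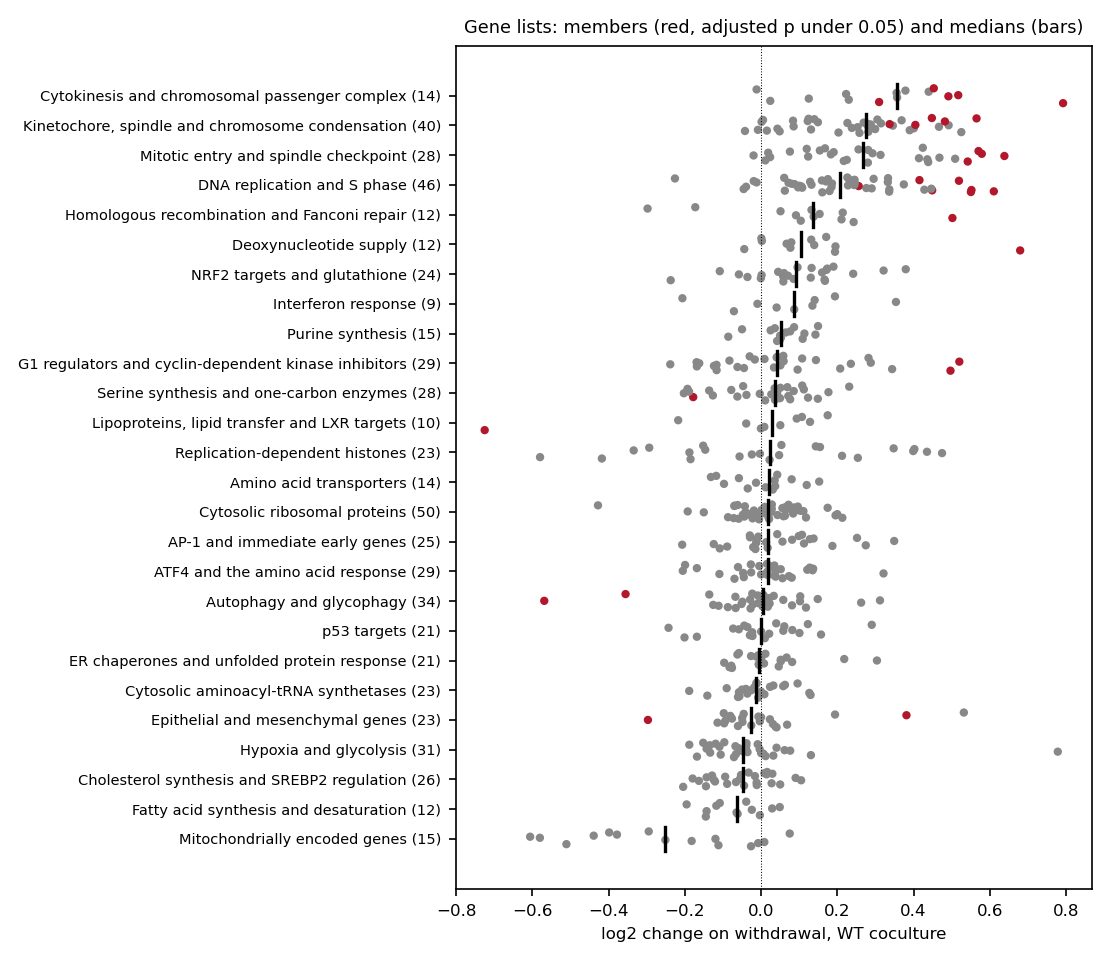
Log2 change on withdrawal in WT coculture for each tested member of 26 gene lists (points, red where the adjusted p is under 0.05; number tested in brackets), with list medians as black bars, ordered by median. Cytokinesis (0.36), the kinetochore (0.27), mitotic entry (0.27) and DNA replication (0.21) stand at the top, and the mitochondrially encoded genes (−0.25) at the bottom.

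In WT monoculture the same withdrawal called 165 rises (1.37%) and 31 falls (0.257%), and none of the 181 cell division genes was among them. Their median there was −0.04. The difference between the coculture and monoculture responses, tested as an interaction over libraries that the 2 responses do not share, was more positive for 51 genes (0.423%) and more negative for 150 (1.24%). Of the 181 cell division genes 23 were more positive and none more negative. With the 12 WT libraries alone 552 differences were called, and with single libraries left out 100 to 195. The median change of the replication list was 0.21 in coculture and −0.08 in monoculture. Rrm2 had FPKM of 3.17, 2.81 and 2.47 in monoculture with serine and glycine and 2.59, 1.81 and 1.72 without, a change of −0.34 against 0.68 in coculture (difference 1.02, limma adjusted p = 0.00385). For Mcm3 the monoculture change was −0.12 and the difference 0.67 (adjusted p = 0.000962), and for Ect2 they were −0.03 and 0.83 (adjusted p = 0.018). E2f1 (difference 0.65) and Gmnn, the replication licensing inhibitor geminin (difference 0.77, adjusted p = 0.0207), completed the 5 largest positive differences among protein-coding genes of at least 5 FPKM in the highest group, again without predicted and clone names. Gmnn had not passed in coculture alone (0.34, adjusted p = 0.291).

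Among protein-coding genes of at least 5 FPKM in the highest group, leaving out predicted and clone names, Apoe had the most negative difference between coculture and monoculture. It read 2.85, 2.63 and 2.88 FPKM in monoculture with serine and glycine and 4.11, 5.37 and 4.32 FPKM without, so that it lay higher after withdrawal in monoculture (0.56, limma adjusted p = 0.0706) and lower in coculture (difference −1.28, adjusted p = 0.0031). Plppr3 (−0.88), Leng8 (−0.85), the cadherin gene Fat1 (−0.75) and the splicing factor gene Luc7l2 (−0.74) followed under the same limits. The noncoding genes fall outside them. Malat1 rose in monoculture by 1.102 (adjusted p = 6.66e-05) and fell in coculture (difference −1.89, adjusted p = 1.59e-05). Of the 18 tested RNAs of the list drawn up afterwards 9 were more negative and none more positive. Fn1 also rose in monoculture (0.31, adjusted p = 0.00158) and fell in coculture. Of the 53 coculture rises 31 lay below 0 in monoculture and 2 were called there. Of the 36 falls 28 lay above 0 and 7 were called. Among all 12061 tested genes 6440 lay below 0 in monoculture and 5579 above, with 1.37% called as rises and 0.257% as falls. For Slco4a1 the changes were alike in size, 0.54 in coculture and 0.48 in monoculture (difference 0.06, adjusted p = 0.895).

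In KO coculture withdrawal called far more genes, 1865 rises (15.5%) and 1742 falls (14.4%). The response was more positive in WT than in KO coculture for 770 genes (6.38%) and more negative for 972 (8.06%). The KO libraries without serine and glycine spread more than the WT ones, with replicate correlations of 0.973 to 0.986. Leaving out replicate 1 of them raised the 1742 differences to 3080 and leaving out replicate 2 lowered them to 1076, and leaving out replicate 1 of the serine-free WT cocultures gave 1104. Of the 181 cell division genes 90 rose and 14 fell in KO coculture, with a median of 0.26. Their difference between the genotypes was called more positive in WT for 10 and more negative for 23.

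The counts of called differences between genotypes varied among the lists. Over all tested genes 6.38% were more positive in WT and 8.06% more negative, and the lists were not tested against these shares. In replication 4 of 46 genes were more positive in WT and none more negative, and in mitotic entry 3 of 28 were more positive and 7 more negative. In the kinetochore and spindle list none of 40 was more positive and 11 were more negative, and in cytokinesis none and 3 of 14. Top2a changed by 0.57 in WT and by 1.27 in KO coculture (difference −0.71, limma adjusted p = 0.000277). Ect2 changed by 0.79 in WT and 1.27 in KO, a difference that did not pass (−0.48, adjusted p = 0.0693). Ccnb1 changed by 0.54 and 1.51 (difference −0.97, adjusted p = 0.00038). E2f1 was more positive in WT, with KO levels of 6.80, 6.22 and 6.35 FPKM with serine and glycine and 5.90, 5.13 and 4.71 FPKM without (−0.26, adjusted p = 0.0513, difference 0.78, adjusted p = 0.00104). Akr1b3 changed by 0.10 in KO coculture (difference 0.40, adjusted p = 0.00167).

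**Figure D5:**
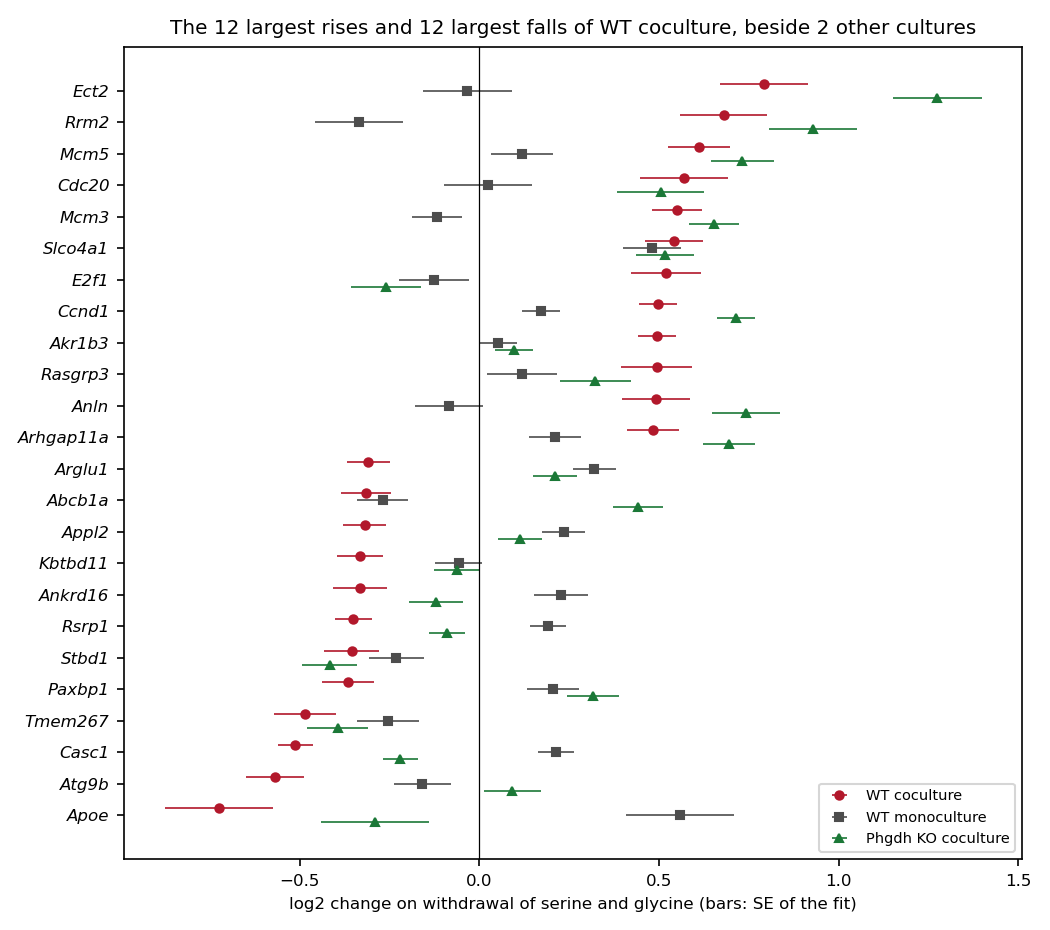
Log2 change on withdrawal of serine and glycine (points; bars, standard error of the fit) for the 12 largest rises and 12 largest falls of WT coculture among protein-coding genes of at least 5 FPKM in the higher group with a usual symbol, in WT coculture (red circles), WT monoculture (grey squares) and Phgdh KO coculture (green triangles). The genes were chosen on the red values, and Ect2 lies at 0.79, −0.03 and 1.27 in the 3 cultures while Apoe lies at −0.72, 0.56 and −0.29.

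In KO coculture 15.5% of all tested genes rose and 14.4% fell. Of the 36 falls of WT coculture 8 also fell there and 12 rose. Of the 53 rises 39 also rose there and 3 fell. Muc1 was one of the 3, at 13.2, 13.4 and 13.6 FPKM with and 7.56, 6.76 and 7.57 FPKM without in KO cells (−0.80, limma adjusted p = 1.3e-08). Abcb1a, which fell in WT coculture, rose in KO coculture by 0.44 (difference −0.76, adjusted p = 6.73e-05). Cholesterol synthesis, with no call among 26 genes in WT coculture, had 18 falls and a median of −0.48 in KO coculture, and 15 genes differed between the genotypes. Hypoxia and glycolysis genes had 19 falls and 1 rise in KO coculture against none in WT, and the difference was called more positive in WT for 7 and more negative for 1 of 31. The mitochondrially encoded genes had 7 rises in KO coculture (median 0.55) and the difference was called for the same number, all more negative in WT. Under the same limits on gene type, symbol and FPKM, the 5 largest positive differences were those of Lgals4 (2.22), Rnaseh2c (1.57), Epop (1.34), Tmem107 (1.34) and Wnt7a (1.28), and the 5 largest negative ones those of Ivl (−2.22), Klra4 (−1.87), Il1rn (−1.82), Mmp13 (−1.81) and Cldn2 (−1.69). The differences of Rnaseh2c and Epop lost the call in 13 of 22 alternatives each, with adjusted p up to 0.111 and 0.107, and that of Epop was 0.72 at its lowest. None of these 10 genes passed the test in WT coculture, where their changes lay between 0.11 for Wnt7a and 0.32 for Ivl.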

How the data were processed

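The authors deposited FPKM values for 24 libraries in 1 table, 3 libraries in each of 8 groups, made by alignment with HISAT2 on the mouse build GRCm38 (mm10), per the submitters' processing notes. How reads were counted, on which annotation and strand, and the HISAT2 version were not given in the sources used here. Reads per gene were recovered from FPKM times gene length, which came out whole in 100% of values (tolerance 0.01). The table had 0 columns of other samples.

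Genes reaching 1 FPKM in 3 or more libraries were tested as log2(FPKM + 1) in limma 3.58.1 (R 4.3.3; two-sided moderated test with a mean-variance trend) with 8 group means over all 24 libraries, no replicate block and 16 residual degrees of freedom. Benjamini-Hochberg adjustment covered all 12061 genes, with calls at an adjusted p under 0.05. The same fit gave the withdrawal changes in WT monoculture and KO coculture and the 2 differences between responses, which share the WT coculture libraries. Values after ± are standard errors, and intervals are limma's 95% intervals. The script was tested on simulated data.

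Named genes are Phgdh, the 12 largest rises and 12 largest falls (called, protein-coding, no overlap of libraries, at least 5 FPKM in the higher group, no predicted or clone name), called members of the lists, the 3 most abundant members of lists with fewer than 3 calls, and the 5 largest differences each way per interaction. Some genes that the rule names are not reported here. Exceptions are named where they occur, and other list members are given as examples chosen by their known roles. The genes, lists and tests were chosen with earlier results of these data known. Alternatives covered the pseudocount, filter, normalization, limma voom on the recovered reads, the libraries in the fit, a replicate block, correction for GC content and gene length, and each library left out. Promoter windows came from a RefSeq table of GRCm38.p6, and figures were drawn with matplotlib 3.10.9.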

Additional observations from a re-analysis of the deposited data

Results flagged for a closer look

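The withdrawal response differed between WT coculture and WT monoculture for 201 genes, and between WT and KO coculture for 1742, by the interaction test of limma (adjusted p under 0.05). For the 12 largest rises and 12 largest falls in WT coculture among protein-coding genes of at least 5 FPKM in the higher group, without predicted and clone names, the difference itself was called against monoculture for 15 and against KO coculture for 9. These genes were chosen for a large change in WT coculture, whose libraries also enter the difference, so the sizes are a description.

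Coculture minus monoculture, the rises had log2 differences of 0.826 for Ect2, 1.02 for Rrm2, 0.493 for Mcm5, 0.668 for Mcm3, 0.647 for E2f1, 0.324 for Ccnd1, 0.442 for Akr1b3 and 0.575 for Anln. The falls had differences of −1.28 for Apoe, −0.726 for Casc1, −0.57 for Paxbp1, −0.542 for Rsrp1, −0.56 for Ankrd16, −0.553 for Appl2 and −0.629 for Arglu1. Every one of these 15 had a monoculture change that was smaller than in coculture or of the other sign. That follows from a difference with the same sign as the coculture change and is no separate result.

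WT minus KO coculture, the differences were 0.78 for E2f1 and 0.397 for Akr1b3 among the rises. Among the falls they were −0.661 for Atg9b, −0.293 for Casc1, −0.68 for Paxbp1, −0.261 for Rsrp1, −0.432 for Appl2, −0.757 for Abcb1a and −0.519 for Arglu1. Arglu1, Paxbp1 and Abcb1a rose in KO coculture, by 0.21, 0.32 and 0.44.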

How the results depend on the processing

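The 89 calls of WT coculture withdrawal became 59 with a pseudocount of 0.1, 243 with the 12 WT libraries only, 4 with only the 2 groups, 204 (97 rises and 107 falls, where the reported split was 53 and 36) with GC content and gene length correction, and 178 with that correction and the replicate block. They ranged from 37 to 50 with 1 library left out. Without serine-free replicates 1, 2 and 3 the numbers were 49, 45 and 48, and without serine-replete replicates 1, 2 and 3 they were 37, 45 and 50. The 201 differences from monoculture became 552 with the 12 WT libraries, which are also the only groups of that contrast, and 100 to 195 with 1 library left out. That count moved by over 1.5 times without coculture serine-free replicate 1 (100), coculture serine-replete replicate 1 (118), monoculture serine-free replicate 3 (107) and monoculture serine-replete replicates 1 (131) and 3 (126). The 1742 differences from KO ranged from 1076 to 3080 with 1 library left out, and moved by over 1.5 times without KO serine-free replicates 1 (3080) and 2 (1076) and WT serine-free replicate 1 (1104). No filter, quantile normalization, median centring, voom, a filter of 5 FPKM and the replicate block kept each count within 1.5 times of that reported. No named gene reversed, and 3 of 51 named called genes (Akr1b3, Ccnd1 and Rsrp1) were called in all 17 alternatives. In each of those 17 no cell division gene fell.

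Same-numbered replicates of the WT cocultures did not deviate together (correlations of −0.039, 0.0522 and −0.0622). With so few libraries this cannot show that the samples are unpaired, and the labels do not tell. The replicate block gave 75 calls in WT coculture, 159 differences from monoculture and 1504 from KO. Depth limits the genes under 1 FPKM, where calls such as Kif18b rest on 11 to 41 reads.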

Other observations

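Called genes that the naming rule did not reach were read after their values were seen. Among the rises were Plat, the tissue plasminogen activator gene (2.50, 2.06 and 2.62 FPKM with serine and glycine, 3.97, 3.68 and 3.75 FPKM without, log2 change 0.50), and Pros1, the protein S gene (0.40). Cavin2 also rose (79.6, 88.4 and 83.6 FPKM with, 99.4, 102 and 101 FPKM without, 0.27), as did Ehd4 (0.37) and Pacsin2 (0.21). Suox, the sulfite oxidase gene, read 11.5, 11.2 and 11.5 FPKM with and 15.3, 15.0 and 15.0 FPKM without (0.38), and Ephx2, an epoxide hydrolase gene, rose by 0.43. Other rises were Arhgap40 (0.60), Stxbp6 (0.50), Fbln1 (0.45), Plscr4 (0.44), Atp1b1 (0.42), Tor4a (0.37), S100a7a (0.27) and Abcc5 (0.24). Of these, Arhgap40 and Cavin2 fell in KO coculture, by 0.66 and 0.28 on the log2 scale.

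Among the other falls were Lamb1, a laminin chain gene (65.5, 64.4 and 64.8 FPKM with, 56.9, 55.9 and 54.4 FPKM without, −0.22), and Gys1, the glycogen synthase gene (−0.18), which stands beside the glycogen-tethering gene Stbd1 of the report. Lamb1 rose in KO coculture (0.22) and Gys1 fell there (−0.38). Ep400, Khdc4 and Fubp1, which encode proteins of the nucleus, had changes of −0.28, −0.29 and −0.29 in WT coculture and 0.23, 0.23 and 0.21 in WT monoculture, where the first 2 were called. The neighbouring noncoding genes Gm15247 (−0.90) and G530011O06Rik (−0.87) on chromosome X both lie across from Mid1, with which they overlap. The remaining falls were Myl7 (−0.70), Gm28875 (−0.70), Col20a1 (−0.55), CT030190.1 (−0.54), Perm1 (−0.53), AC160637.1 (−0.50), 3110039I08Rik (−0.48), Unc13a (−0.31) and Plekha5 (−0.27).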
